A study of Mus musculus with 14 samples.

Results

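Genes of the Kupffer cell, the resident macrophage of the liver, were followed in RNA from sorted liver sinusoidal endothelial cells (LSECs), a preparation from which macrophages were meant to be removed, 10 genes in all. The members were the rows whose Ensembl ID carries one of 10 symbols in GENCODE vM21, 10 of the 54524 genes in the table. They were read in 2 groups, 5 tissue-resident markers (Clec4f, Vsig4, Timd4, Cd5l and Marco) and 5 general macrophage genes (C1qa, C1qb, C1qc, Adgre1 and Csf1r). All 10 passed the filter on low counts, as did 26626 genes in all. The rule uses no measured value, though the list was chosen with earlier results of these data known. Each gene had reads in every one of the 14 libraries, from 35 counts upwards.

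The mice were male Balb/c animals, 10 to 12 weeks old by the labels and slightly older by the study's methods. The 4 healthy mice received no injection, so no group was given the mineral oil alone. The other mice received 1 intraperitoneal injection of carbon tetrachloride (CCl4), a solvent that injures hepatocytes, at 0.5 µL per g of body weight in mineral oil, and LSECs were collected after 1 day (2 mice), 3 days (4 mice) or 7 days (4 mice). In the sort, cells with CD32 on their surface were kept, cells with F4/80, UV autofluorescence or propidium iodide were discarded, and the methods add the removal of CD45-positive cells and of doublets with other liver cells. Adgre1, a member, encodes the F4/80 protein that the sort selected against.

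Kupffer cells line the sinusoids beside LSECs and take up particles, microbes and old red blood cells from portal blood. Clec4f, Vsig4, Timd4, Cd5l and Marco mark these resident cells, whereas the C1q chains, F4/80 and the CSF1 receptor are made by macrophages of many tissues and also by monocyte-derived cells. After an acute liver injury, resident Kupffer cells can be lost, and monocytes enter the liver and become macrophages, which express the general genes before they gain the resident ones.

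In the deposited table the authors' read counts per gene summed to between 46401496 and 103912264 per library. Every library held reads of 12 LSEC markers, which summed to between 23574 and 27052 in healthy mice and between 12650 and 18957 in injured mice on the CPM scale, on which the counts of a library are scaled to a common total. The injured mice all lay below the healthy mice in this sum. Of the 12 markers edgeR called 4 lower at day 1 and 4 at day 3, against 1.64% and 2.58% of tested genes. It called Lyve1 higher at both times (2.42% and 4.62% of tested genes were). At day 7 it called 0 of the 12, against 3.18% of tested genes in either direction. The part of this difference in the macrophage results was not tested. Levels are given below as CPM after TMM scaling (edgeR), and differences as log2 fold changes from edgeR's quasi-likelihood test with Benjamini-Hochberg adjustment over the 26626 tested genes. In RNA from a sorted population, fewer macrophages and less of a transcript per macrophage cannot be told apart, and the source of the reads was not tested.

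One healthy library stood apart in every member. In healthy replicate 1 all 10 genes lay below the other 3 healthy mice, by 4.34-fold (C1qc) to 10.7-fold (Marco), with a median of 5.43-fold. Over all tested genes the median of this ratio was 0.958, and 20.7% of genes lay below the other 3 mice. The gap was wider for the resident markers (median 8.52-fold) than for the general genes (median 4.40-fold). Of 12 further Kupffer cell genes, 11 were also lowest in that mouse (median 4.46-fold), while the 12 LSEC markers had a median ratio of 0.946. A gap of 5-fold or more was found in 810 of the tested genes (3.04%), 5 of the 10 members among them. Main results that this mouse changes are given with and without it, and why it held fewer reads of these genes was not tested.

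**Figure D1:**
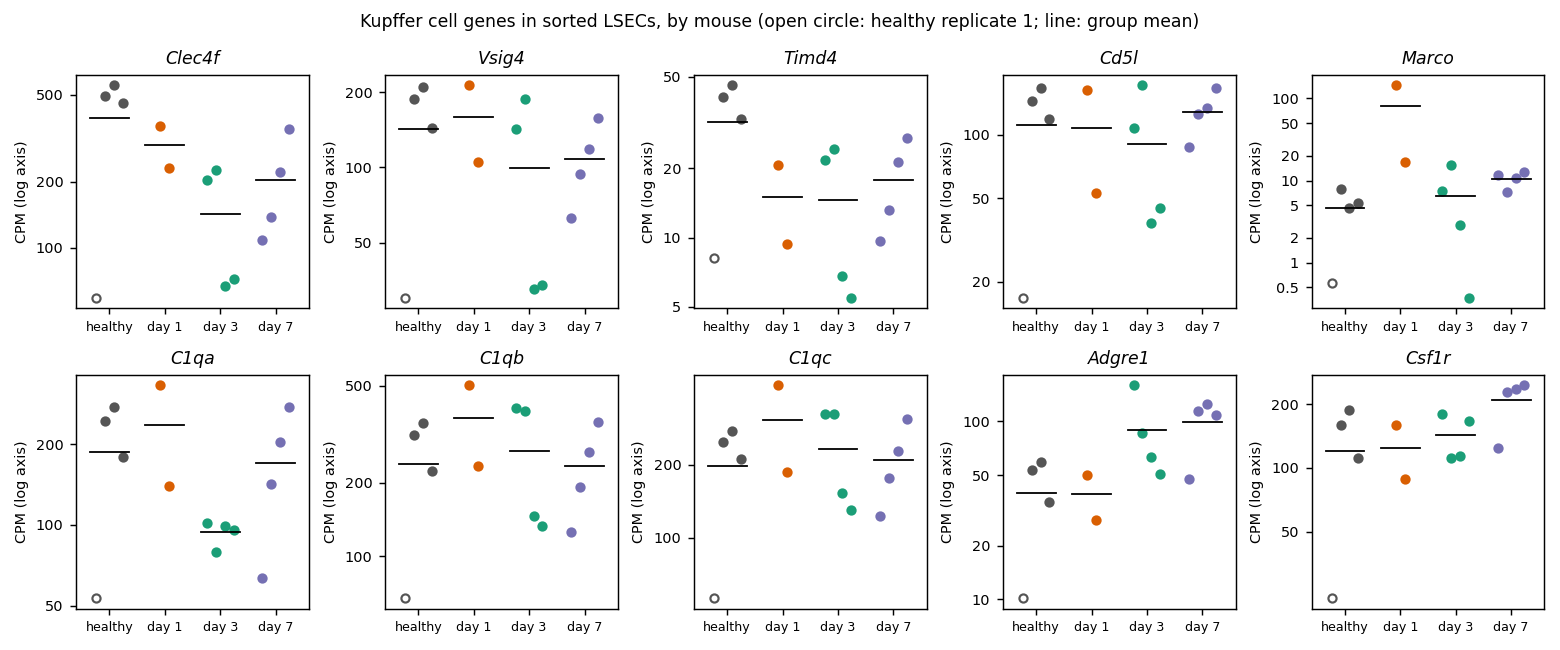
Level of each of the 10 genes in each mouse, in CPM on a log axis, with 1 point per mouse, a line at the group mean and an open circle for healthy replicate 1. The open circle lies below the other healthy mice in all 10 panels, and 2 of the 4 day 3 mice lie well below the other 2 for Clec4f, Vsig4, Timd4, Cd5l, C1qb and C1qc.

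Per kilobase of annotated exon, the C1q chains and Clec4f were the most abundant of the 10 transcripts in healthy LSECs. C1qb stood at 219 ± 116 CPM per kb (SD, n = 4), followed by C1qa (180 ± 94.1), Clec4f (158 ± 91.0), C1qc (102 ± 50.7) and Vsig4 (96.1 ± 53.9). Cd5l (54.9 ± 32.5), Csf1r (20.9 ± 12.4), Timd4 (14.7 ± 7.74) and Adgre1 (12.2 ± 6.80) followed, and Marco was the least abundant (2.40 ± 1.59). From C1qb down to Adgre1 each gene overlapped its neighbour in this order within 1 SD, and Marco lay lower. Clec4f was thus below C1qb and C1qa by their means in healthy LSECs. At day 1 Clec4f (119 ± 37.0 CPM per kb, n = 2) also lay below C1qc (158 ± 87.0) by the means. At day 3 Clec4f, at 57.5 ± 34.3 CPM per kb (n = 4), stood below C1qb (248 ± 138), C1qc (121 ± 54.6) and C1qa (90.3 ± 9.70) by their means.

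The members lie on several chromosomes (GRCm38, GENCODE vM21). Clec4f is at chr6:83644542-83656187, Vsig4 at chrX:96247203-96293438, Timd4 at chr11:46810800-46844332, Cd5l at chr3:87357881-87371073 and Marco at chr1:120474538-120505024. C1qb (chr4:136880129-136886187), C1qc (chr4:136889804-136893065) and C1qa (chr4:136895917-136898803) sit side by side on the minus strand. Adgre1 is at chr17:57358691-57483527. The exons of Csf1r overlap those of Hmgxb3 on the other strand, and since the use of strand in counting is not stated, reads from both genes cannot be told apart there.

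The 10 genes were low together in healthy replicate 1, and the 250 bases before their starts were searched for GAGGAA, the core letters bound by PU.1 (Spi1), the macrophage master regulator, on both strands. Windows of 7 of the 10 genes were taken from the RefSeq table (GRCm38.p6). Csf1r was excluded from the search, and C1qa and Adgre1 were not among the entries used. Of these 7 windows 5 had a match, against 7639 of 32851 promoters of the same length (23.3%). The 3 windows shown are those of Marco, the gene with the largest difference after injury, and of Vsig4 and Timd4, a pair of resident markers whose ratio is described below. Capitals mark the match, which lies 146 bases before the start in Marco and 155 and 53 bases before it in Vsig4. The Timd4 window had none, which says only that these letters are not in it.
Marco, chr1:120505025-120505274, minus strand: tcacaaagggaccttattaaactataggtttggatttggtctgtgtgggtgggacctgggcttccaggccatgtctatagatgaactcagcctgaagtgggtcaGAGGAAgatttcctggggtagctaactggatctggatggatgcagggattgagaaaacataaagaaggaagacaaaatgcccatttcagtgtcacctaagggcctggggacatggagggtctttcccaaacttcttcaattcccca
Vsig4, chrX:96293439-96293688, minus strand: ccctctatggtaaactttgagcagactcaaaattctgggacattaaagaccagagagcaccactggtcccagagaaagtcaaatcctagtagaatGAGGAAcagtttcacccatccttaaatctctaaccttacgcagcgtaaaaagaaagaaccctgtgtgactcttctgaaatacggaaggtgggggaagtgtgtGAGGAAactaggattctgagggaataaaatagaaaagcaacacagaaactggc
Timd4, chr11:46810549-46810798, plus strand: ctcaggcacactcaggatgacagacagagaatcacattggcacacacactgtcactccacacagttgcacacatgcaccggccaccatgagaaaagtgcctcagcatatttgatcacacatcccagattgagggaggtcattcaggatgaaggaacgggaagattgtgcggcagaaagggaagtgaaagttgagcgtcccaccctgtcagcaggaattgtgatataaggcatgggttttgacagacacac
The other matches were in Cd5l (66 bases before the start), C1qb (30 bases) and C1qc (193 bases), and the Clec4f window had none. These distances are from the RefSeq starts. Those of C1qc and Clec4f lie 151 and 71 bases inside the GENCODE genes, so these windows cover part of the annotated gene. A match of 6 letters is a description and not a binding site.

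The resident markers were read first. Clec4f, a C-type lectin restricted to Kupffer cells in the mouse, stood at 58.9, 492, 554 and 461 CPM in healthy replicates 1 to 4 and at 360 and 230 CPM at day 1. It stood at 203, 227, 66.5 and 71.7 CPM at day 3, and at 109, 138, 223 and 349 CPM at day 7. All 10 injured mice lay below healthy replicates 2 to 4 and above none but healthy replicate 1. Against healthy LSECs the log2 fold change was -0.41 at day 1 (standard error 0.74, adjusted p = 0.864, edgeR), -1.46 at day 3 (0.61, adjusted p = 0.173) and -0.94 at day 7 (0.60, adjusted p = 0.391). None passed the threshold of 0.05. Without healthy replicate 1 the day 3 value was -1.82 with an adjusted p of 0.0566.

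Vsig4 encodes CRIg, a complement receptor with which Kupffer cells capture opsonised bacteria. Its levels were 30.1, 187, 210 and 143 CPM in healthy LSECs, 213 and 105 CPM at day 1, 143, 187, 32.8 and 33.8 CPM at day 3 and 62.7, 94.4, 119 and 157 CPM at day 7. Every group overlapped every other, and the log2 fold changes against healthy LSECs were 0.16, -0.52 and -0.40 at days 1, 3 and 7 (edgeR, adjusted p = 0.963, 0.674 and 0.759).

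Timd4 encodes TIM-4, a phosphatidylserine receptor of long-lived resident macrophages that binds dying cells. It stood at 8.17, 41.1, 46.1 and 32.7 CPM in healthy LSECs and at 20.8 and 9.40 CPM at day 1. It stood at 21.8, 24.3, 6.82 and 5.48 CPM at day 3 and at 9.67, 13.2, 21.3 and 27.2 CPM at day 7. As for Clec4f, all injured mice lay below healthy replicates 2 to 4. The log2 fold changes were -1.08 (adjusted p = 0.503, edgeR), -1.13 (adjusted p = 0.275) and -0.84 (adjusted p = 0.424) at days 1, 3 and 7, with standard errors of 0.74, 0.58 and 0.58, and none passed.

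Cd5l encodes AIM, a secreted protein of tissue macrophages that limits their death. It stood at 16.8, 145, 166 and 119 CPM in healthy LSECs and at 163 and 53.1 CPM at day 1. At day 3 it stood at 107, 172, 38.0 and 45.1 CPM and at day 7 at 87.6, 125, 134 and 168 CPM. The groups overlapped throughout, and the log2 fold changes were -0.05, -0.30 and 0.20 (edgeR, adjusted p = 0.995, 0.816 and 0.886).

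Marco, a scavenger receptor that binds bacteria and particles, had the largest difference of the 5. It was low in healthy LSECs (0.559, 7.93, 4.66 and 5.31 CPM) and stood at 145 and 16.9 CPM at day 1. Each mouse at day 1 exceeded the 4 healthy mice, as was so for 20.0% of all tested genes, but the 2 differed widely from each other. The log2 fold change was 4.14 (standard error 1.09, unadjusted p = 0.00208, adjusted p = 0.0507, edgeR), just outside the threshold. The size rested on day 1 replicate 1, since without it the value was 1.82 (adjusted p = 0.864) and without day 1 replicate 2 it was 4.94 (adjusted p = 0.0453). DESeq2 and limma-voom called the difference, and without healthy replicate 1 it was 3.76 (adjusted p = 0.0884), with both mice again above the other healthy ones (25.2% of tested genes). At day 3 Marco stood at 7.41, 15.5, 2.88 and 0.372 CPM, all below both day 1 mice (10.4% of tested genes), and day 3 minus day 1 was -3.64 in log2 CPM units by edgeR (adjusted p = 0.102, standard error 1.08). At day 7 it stood at 11.7, 7.19, 10.6 and 12.6 CPM, 1.19 above healthy LSECs on the log2 scale (adjusted p = 0.479).

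Markers of other myeloid cells were high in the same 2 day 1 libraries. The 6 neutrophil genes summed to 6630 and 2661 CPM at day 1 replicates 1 and 2, against 19.1 to 136 CPM in healthy LSECs, and the 8 monocyte genes to 535 and 485 CPM against 44.9 to 134 CPM. The part of these cells in the Marco reads was not tested.

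The general macrophage genes were read next. C1qa, C1qb and C1qc encode the A, B and C chains of C1q, the recognition unit of the classical complement pathway. C1qb stood at 67.2, 313, 350 and 223 CPM in healthy LSECs, at 501 and 234 CPM at day 1, at 404, 395, 145 and 133 CPM at day 3 and at 125, 192, 266 and 353 CPM at day 7. C1qc followed it, in healthy LSECs with 56.5, 248, 276 and 211 CPM. It stood at 424 and 186 CPM after 1 day, at 323, 324, 153 and 131 CPM after 3 days and at 123, 176, 229 and 308 CPM after 7 days. All groups overlapped healthy LSECs for both chains. The log2 fold changes lay between -0.03 and 0.63, with adjusted p-values from 0.651 to 0.989 (edgeR).

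C1qa departed from its partners at day 3. It stood at 53.4, 244, 274 and 178 CPM in healthy LSECs, at 330 and 140 CPM at day 1, at 102, 79.3, 98.8 and 95.6 CPM at day 3 and at 63.5, 141, 203 and 274 CPM at day 7. The 4 day 3 mice lay close together and below all but 1 healthy mouse and below both day 1 mice. The log2 fold change was -0.997 against healthy LSECs (standard error 0.48, adjusted p = 0.244, edgeR) and -1.32 against day 1 (0.56, adjusted p = 0.270).

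Adgre1, the gene of F4/80, was the member with the most even difference at the later times. It stood at 10.2, 53.7, 58.9 and 35.2 CPM in healthy LSECs and at 50.2 and 27.8 CPM at day 1. It stood at 159, 85.9, 63.1 and 50.8 CPM at day 3 and at 47.5, 115, 126 and 109 CPM at day 7. In each of the later groups 3 of 4 mice lay above all healthy mice and 1 lay within their range. The log2 fold change was 1.19 at day 3 (standard error 0.50, unadjusted p = 0.0333, adjusted p = 0.180, edgeR) and 1.33 at day 7 (0.50, unadjusted p = 0.0194, adjusted p = 0.153). Neither passed, and limma-voom alone of the alternatives called the day 7 difference (adjusted p = 0.0298). Leaving out each mouse in turn gave values from 0.66 to 1.44 at day 3 and from 1.01 to 1.59 at day 7.

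Csf1r encodes the receptor for CSF1 and IL-34, on which macrophages depend for survival. It stood at 24.4, 160, 188 and 111 CPM in healthy LSECs and at 159 and 88.9 CPM at day 1. At day 3 it stood at 180, 111, 114 and 166 CPM and at day 7 at 125, 227, 236 and 245 CPM. At day 7, 3 of the 4 mice lay above all healthy mice, 0.79 higher in log2 units by edgeR (adjusted p = 0.342, standard error 0.46), or 0.44 without healthy replicate 1. The values at days 1 and 3 were 0.04 and 0.24 (adjusted p = 0.993 and 0.800).

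**Figure D2:**
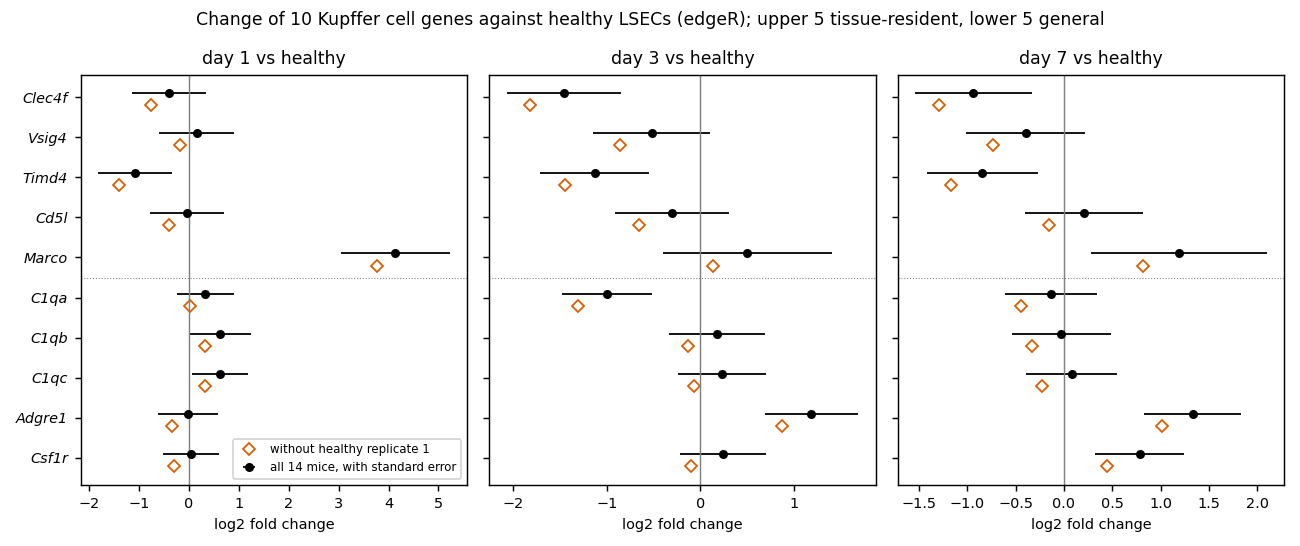
Log2 fold change of each of the 10 genes against healthy LSECs at days 1, 3 and 7 from edgeR, with its standard error over 14 mice (filled points) and without healthy replicate 1 (open diamonds). Marco at day 1 (4.14) is farthest from 0, Clec4f and Timd4 are below 0 at all 3 times, and Adgre1 is at 1.19 and 1.33 at days 3 and 7.

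Over the whole list, edgeR called 0 of the 10 members in each of the 5 comparisons. The share of all tested genes called was 4.06% at day 1, 7.19% at day 3 and 3.18% at day 7 against healthy LSECs, 2.54% for day 3 against day 1 and 1.77% for day 7 against day 3, each of them less than 1 gene in 10. An unadjusted p under 0.05 was reached by 1 member at day 1 (Marco), 2 at day 3 (Adgre1 and Clec4f), 1 at day 7 (Adgre1), 2 for day 3 against day 1 (Marco and C1qa) and 0 for day 7 against day 3, against 17.9%, 22.2%, 21.1%, 15.8% and 18.8% of all tested genes. DESeq2 called 1, 0, 0, 1 and 0 members in the same order, and limma-voom 1, 0, 1, 0 and 0. A p that misses the threshold does not show that the levels were equal, and the 3 comparisons with healthy LSECs share the same 4 healthy mice.

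The medians of the resident and the general genes were set side by side. The 5 resident markers had a median log2 fold change against healthy LSECs of -0.05 at day 1, -0.52 at day 3 and -0.40 at day 7. The 5 general genes had 0.33, 0.23 and 0.08, and all tested genes had -0.03, 0.18 and 0.02. Without healthy replicate 1 the medians were -0.40, -0.86 and -0.73 for the resident markers and 0.02, -0.10 and -0.23 for the general genes, so the direction of the general median at days 3 and 7 rested on that mouse. No member lay apart from all healthy mice at days 3 and 7, as 14.4% and 20.8% of tested genes did. Without healthy replicate 1, Clec4f and Timd4 lay below all healthy mice at days 1, 3 and 7 and C1qa did at day 3, against 20.9%, 7.83% and 14.8% of tested genes at the 3 times. Without that mouse edgeR called 0 members, against 2.69%, 3.61% and 0.726% of tested genes, while DESeq2 without it called Clec4f and C1qa at day 3, and edgeR scaled by library size only called Clec4f (both chosen after seeing the data).

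Each library carried its own amount of macrophage reads, so the counts of the members were also set against each other within a library. A ratio of this kind does not depend on how many macrophage reads a library holds if they come from 1 source, and it is given as a description. Per count of Clec4f, healthy mice held 0.173, 0.109, 0.106 and 0.0764 counts of Adgre1, and the day 1 mice 0.140 and 0.121. The day 3 mice held 0.784, 0.379, 0.949 and 0.708 and the day 7 mice 0.437, 0.833, 0.567 and 0.312. All 8 later mice lay above all 6 healthy and day 1 mice, and healthy replicate 1, with the lowest level of both genes, was the highest of the healthy mice on this scale.

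The same ratio separated Csf1r, C1qb and C1qc at day 3, but not C1qa. C1qa per Clec4f was 0.387 to 0.907 in healthy mice and 0.350 to 1.49 at day 3. Csf1r per Clec4f was 0.241 to 0.414 in healthy mice, 0.386 and 0.442 at day 1, and then ranged from 0.492 to 2.32 (day 3) and from 0.700 to 1.65 (day 7). C1qb per Clec4f was 0.485 to 1.14 in healthy mice, 1.02 and 1.39 at day 1, and then ranged from 1.74 to 2.19 (day 3) and from 1.01 to 1.40 (day 7), and C1qc followed it (0.458 to 0.959, 0.810 and 1.18, 1.43 to 2.30 and 0.883 to 1.28). Both chains therefore lay above all healthy and day 1 mice at day 3. At day 7 they overlapped the healthy mice through healthy replicate 1 alone (1.14 and 0.959), since healthy replicates 2 to 4 reached at most 0.636 (C1qb) and 0.505 (C1qc). Of the resident markers, Cd5l per Clec4f also lay above all healthy mice at both later times, at 0.528 to 0.760 at day 3 and 0.480 to 0.911 at day 7.

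At day 3, 5 of the 9 other members (Adgre1, Csf1r, C1qb, C1qc and Cd5l) lay above all healthy mice in their ratio to Clec4f, as did 4.42% of all tested genes. At day 7 there were 4 (Adgre1, Csf1r, Cd5l and Marco), against 3.15% of tested genes. At day 1, Marco lay above (4.25% of tested genes) and Timd4 below (4.11%). These counts depended on healthy replicate 1, since without it 7, 6 and 8 of the 9 members lay above the healthy mice at days 1, 3 and 7, but so did 49.8%, 56.5% and 49.8% of all tested genes, Clec4f being lower in the injured mice than in the other 3 healthy ones. Ratios to 1 gene share that gene, so these counts are not independent of each other.

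**Figure D3:**
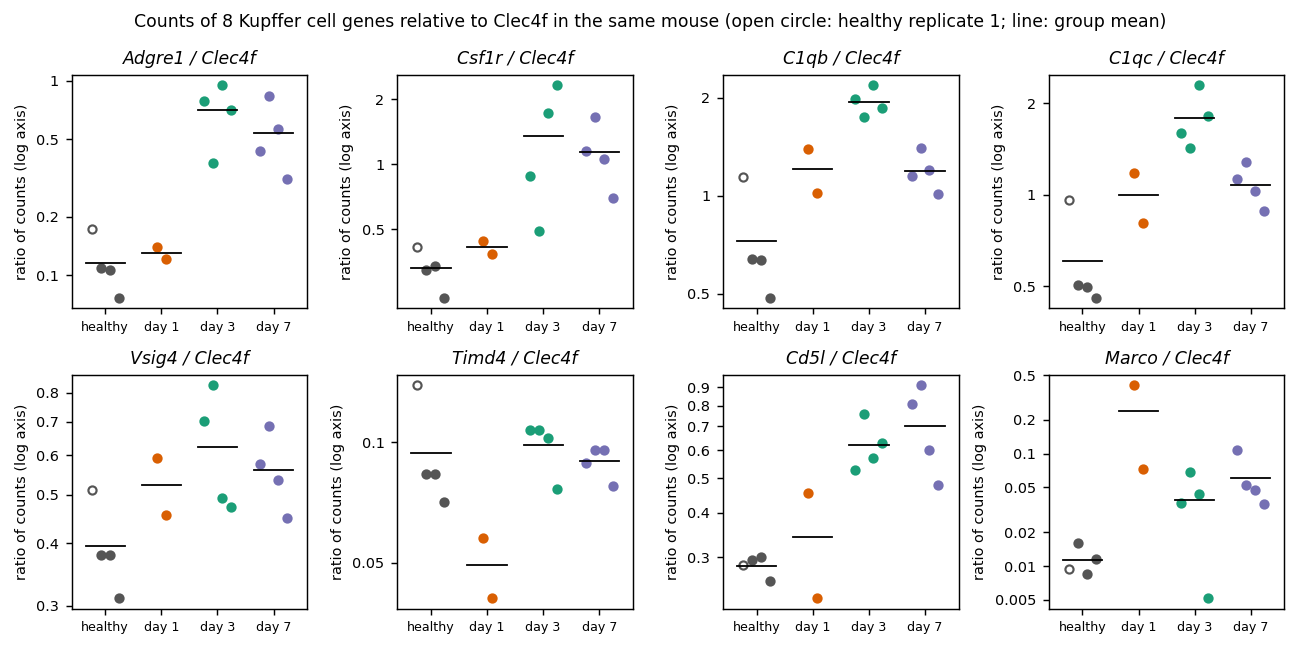
Counts of 8 members divided by the count of Clec4f in the same mouse, on a log axis, with 1 point per mouse, a line at the group mean and an open circle for healthy replicate 1. C1qa is not shown. Adgre1 lies between 0.0764 and 0.173 in healthy mice and between 0.312 and 0.949 in all day 3 and day 7 mice, while Timd4 is lowest at day 1 (0.0408 and 0.0578).

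Across all 25 pairs of a general with a resident gene, 9 ratios lay above all healthy mice at day 3 and 0 below, and 9 lay above and 3 below at day 7. Over the ratios of every tested gene to the 5 resident genes, 2.96% lay above and 0.243% below at day 3, and 2.60% and 6.60% at day 7. The 3 below were C1qa, C1qb and C1qc per Marco. At day 1, 6 lay above and 5 below (4.38% and 17.4% over every tested gene), and all 5 below were ratios to Marco. Without healthy replicate 1, 16, 14 and 16 pairs lay above at days 1, 3 and 7, against 31.5%, 29.0% and 27.4% over every tested gene. With all healthy mice, ratios to Timd4 made up 5, 4 and 5 of those above at days 1, 3 and 7. The counts of Timd4 per count of Vsig4 were 0.271, 0.220, 0.219 and 0.228 in healthy mice, 0.0975 and 0.0897 at day 1, 0.153, 0.130, 0.208 and 0.162 at day 3 and 0.154, 0.140, 0.179 and 0.173 at day 7. All 10 injured mice lay below all 4 healthy mice, and the 2 day 1 mice below all others. The share of all tested genes whose ratio to Vsig4 separates the mice in this way was not computed. The separation is therefore a description without a baseline.

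The 3 chains of C1q are needed in equal number in the protein, and their counts kept a narrow ratio in healthy mice. C1qa per C1qb was 0.795, 0.780, 0.783 and 0.799 in healthy replicates 1 to 4, while their C1qb levels ranged from 67.2 to 350 CPM. It was 0.659 and 0.598 at day 1, 0.252, 0.201, 0.680 and 0.717 at day 3, and 0.507, 0.736, 0.763 and 0.776 at day 7. All 10 injured mice lay below all healthy mice, and day 3 replicates 1 and 2 lay far below the rest. The gap was narrow elsewhere, with 0.776 in day 7 replicate 4 against 0.780 in healthy replicate 2. The share of all tested genes whose ratio to C1qb separates the mice in this way was not computed. C1qc per C1qb stayed between 0.787 and 1.05 in all 14 mice, with no group apart from healthy LSECs.

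The same 2 day 3 libraries stood apart in other ways. They held reads on 34678 and 34768 genes, against 28203 and 22986 in day 3 replicates 3 and 4. Their monocyte genes summed to 2157 and 1081 CPM against 151 and 144 CPM, and their neutrophil genes to 3296 and 1927 CPM against 50.8 and 16.0 CPM. Clec4f lay within the day 7 range in replicates 1 and 2 and below it in replicates 3 and 4. The part of these differences in the C1qa ratio was not tested.

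**Figure D4:**
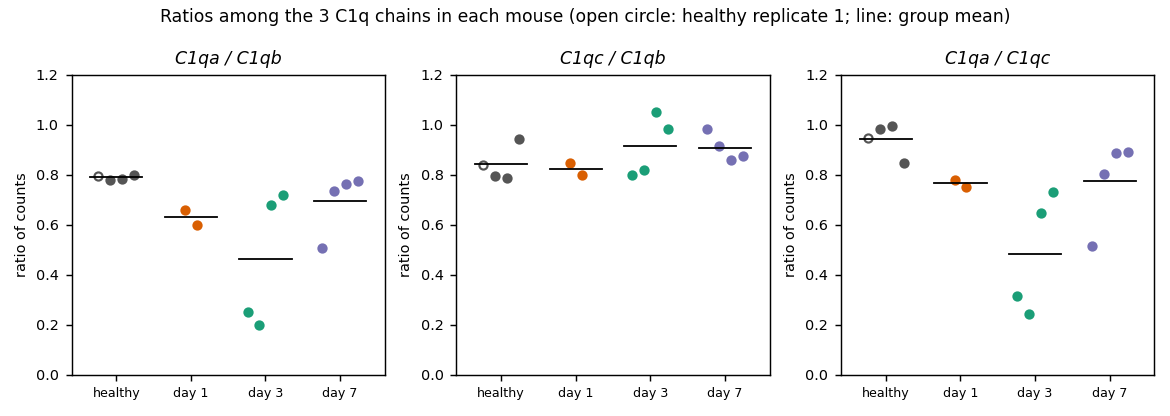
Ratios among the counts of the 3 C1q chains in each mouse on a linear axis from 0, with 1 point per mouse, a line at the group mean and an open circle for healthy replicate 1. C1qa per C1qb lies between 0.780 and 0.799 in the 4 healthy mice and falls into 2 pairs at day 3 (0.201 and 0.252, 0.680 and 0.717), while C1qc per C1qb stays between 0.787 and 1.05.

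Of 6 further genes of the classical pathway, the C1r gene C1ra, a protease that C1q activates, was the only one called. It fell by 1.14 on the log2 scale at day 1 (adjusted p = 0.0209, edgeR) and by 0.76 at day 3 (adjusted p = 0.0338). C1s1, C2, C4b, C3 and Serping1 did not pass in any comparison. Hepatocytes make most of these proteins, and 5 hepatocyte markers moved with the summed list among healthy mice and were low with it at day 1. They summed to 5513 CPM in healthy replicate 4, where the 6 genes summed to 637 CPM, against 131 to 257 CPM and 150 to 196 CPM in the other healthy mice. At day 1 the markers summed to 21.1 and 91.6 CPM and the 6 genes to 102 and 96.8 CPM. C1ra itself stood at 79.5 CPM in healthy replicate 1 and at 75.6 to 90.2 CPM in the other healthy mice. At days 3 and 7 the mouse with the lowest marker sum also had the lowest list sum, but the rest did not keep the same order. Day 3 replicate 3 held 2320 CPM of the markers and 281 CPM of the 6 genes, and day 3 replicate 4 held 1478 and 366 CPM. The part of hepatocyte RNA in these values was not tested.

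Further genes known from Kupffer cells mostly did not pass either. Of 12 such genes, edgeR called 1 higher and 1 lower at day 1 (2.42% and 1.64% of tested genes were) and 1 lower at day 3 (2.58%). Hmox1, the haem-degrading enzyme, rose by 1.96 on the log2 scale at day 1 (adjusted p = 0.0133), and Slc40a1, the iron exporter ferroportin, fell by 1.11 at day 1 (adjusted p = 0.0403) and by 1.43 at day 3 (adjusted p = 0.00281). Both handle iron from red blood cells, and both are also made outside macrophages.

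General macrophage genes outside the 10 members gave more calls. Of 15, edgeR called 4 higher at day 3 (Cd68, Lyz2, Fcgr1 and Cybb) and 4 at day 7 (Lyz2, Ctss, Cd68 and Cybb), where 4.62% and 2.19% of tested genes were called higher at days 3 and 7. At day 3 the 15 genes summed to 15303 and 10085 CPM in replicates 1 and 2, the libraries with many monocyte and neutrophil reads, but to 3127 and 2899 CPM in replicates 3 and 4, against 1388 to 2912 CPM in healthy mice. Their median log2 fold changes were 1.60 and 1.36 at these times, against 0.18 and 0.02 over all tested genes. Lyz2, the lysozyme of monocytes, neutrophils and macrophages, went from 760 ± 371 CPM (SD, n = 4) to 4119 ± 3455 CPM (n = 4) at day 3 and 7279 ± 2499.7 CPM (n = 4) at day 7, log2 fold changes of 2.44 (adjusted p = 0.0247) and 3.26 (adjusted p = 0.0142). Spi1, which encodes PU.1, rose by 1.93 at day 1 (adjusted p = 0.0314).

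A list of genes known from macrophages that appear after injury gave the most calls of the macrophage, monocyte and neutrophil lists at day 7. Of 10, edgeR called 3 higher at day 1, 7 at day 3 and 9 at day 7, against 2.42%, 4.62% and 2.19% of all tested genes. In healthy replicate 1, where all members were low, 5 of these 10 lay below the other healthy mice but 4 lay above them. The list as a whole thus did not follow the members there, and the cells its reads came from were not tested. Trem2, a lipid receptor of such cells, went from 3.84 ± 1.78 CPM in healthy LSECs (n = 4) to 69.9 ± 36.2 CPM at day 3 (n = 4) and 83.8 ± 32.2 CPM at day 7 (n = 4), log2 fold changes of 4.19 (adjusted p = 0.000810) and 4.45 (adjusted p = 0.00179). Gpnmb, a lysosomal glycoprotein, went from 0.867 ± 0.698 CPM (n = 4) to 738 ± 323 CPM (n = 4) at day 7, a log2 fold change of 9.74 (adjusted p = 0.00179). Of 8 monocyte genes, 3, 6 and 2 were called higher at days 1, 3 and 7, among them Vcan at all 3 times. Of 6 neutrophil genes, 4 were called higher at day 1. Markers of stellate cells, the fibre-forming cells beside LSECs, moved with these lists at the later times, with 5 of 7 called higher at day 3 and 6 of 7 at day 7. They summed to 114 to 227 CPM in healthy mice, 356 to 1118 CPM at day 3 and 215 to 3099.8 CPM at day 7, and their part in the other lists was not tested.

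**Figure D5:**
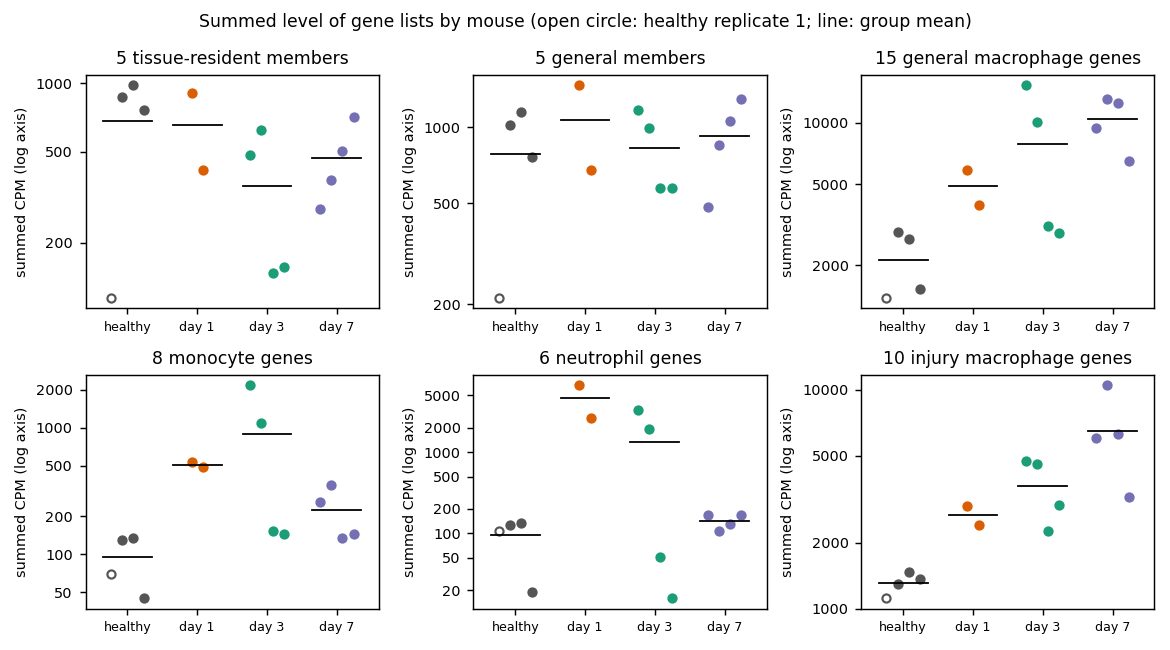
Summed CPM of 6 gene lists in each mouse on a log axis, with 1 point per mouse, a line at the group mean and an open circle for healthy replicate 1. The 5 resident members lie at 902 and 414 CPM at day 1, between 147 and 626 CPM at day 3 and between 280 and 714 CPM at day 7. Healthy replicates 2 to 4 lie between 761 and 981 CPM, but healthy replicate 1, at 115 CPM, lies below all injured mice. The sum of the 10 injury macrophage genes lies above all healthy mice at all 3 times.

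The transcripts of the other gate proteins were also present. Ptprc, which encodes the CD45 that the sort excluded, stood at 70.0 ± 37.6 CPM in healthy LSECs (n = 4) and at 153 ± 34.9 (n = 2), 141 ± 105 (n = 4) and 141 ± 9.44 CPM (n = 4) at days 1, 3 and 7, log2 fold changes of 1.12, 1.01 and 1.01 that did not pass (edgeR, adjusted p = 0.347, 0.258 and 0.259). Of the 3 leukocyte genes in its list, edgeR called 1 higher at day 1, 0 at day 3 and 1 at day 7. Of all tested genes 2.42%, 4.62% and 2.19% were called higher. At day 7 all 3, Ptprc among them, lay above all healthy mice, while 20.8% of tested genes lay apart in either direction. At day 3 0 of the 3 did. Fcgr2b, which encodes the CD32b selected for, stood at 2839.7 ± 419 CPM in healthy LSECs (n = 4) and fell by 0.85 on the log2 scale at day 3 (adjusted p = 0.0240). Of 8 signals with which LSECs and stellate cells are known to recruit and instruct macrophages, 2 rose at day 3 (4.62% of tested genes did). The stellate cell markers were higher at both day 3 and day 7, and their part in these signals was not tested. Ccl2, the monocyte chemokine, rose by 3.21 on the log2 scale (adjusted p = 0.00714) and fell by 3.75 from day 3 to day 7 (adjusted p = 0.0108, with 1.36% of tested genes called lower), and the adhesion molecule Vcam1 rose by 1.25 (adjusted p = 0.0177). Csf1, the ligand of Csf1r, was not called in any comparison.

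The genes whose levels over the 14 libraries were most like those of the members were found by the root mean square difference of centred log2 CPM. The 5 closest to the mean profile of the resident markers were Ccr3 (0.29), Epb41l3 (0.42), Fcna (0.45), Adgre4 (0.46) and Spic (0.50), against a median of 1.27 for all other tested genes. Vsig4 itself was at 0.24 from that profile and Marco at 1.25. Closest to the mean profile of the general genes were Cfp (0.35), Clcf1 (0.35), Gm10602 (0.37), Tmem26 (0.39) and Rab39 (0.41), against a median of 1.01. Among the members, C1qb and C1qc were the most alike pair (0.13), followed by Clec4f and Vsig4 (0.37), and each is a description over libraries that share their amount of macrophage reads.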

How the data were processed

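RNA was sequenced from LSECs of 14 mice. Per the study's methods, quality control and trimming used FastQC and AfterQC, alignment to GRCm38.p6 used STAR, and the authors then ran StringTie, and 2 day 1 samples with low RNA integrity were left out. They deposited raw whole-number counts per Ensembl gene, 1 column per mouse, without normalization, and 0 columns were left unused here. The annotation release, the use of strand and the way to whole numbers are not given in the sources used here, and the sequencing is described both as paired-end and as single-end. Total counts per library were 46401496 to 103912264.

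Symbols, positions and exon lengths came from GENCODE vM21, which held 54495 of 54524 genes. Genes passed edgeR's filterByExpr by group (minimum count 10, minimum total count 15), counts were scaled with TMM, and 1 quasi-likelihood model of the 4 group means over all 14 mice was tested with Benjamini-Hochberg adjustment at 0.05 (edgeR 4.0.16, R 4.3.3). The standard error of a log2 fold change is its size over the root of the F statistic. Log2 CPM used a prior count of 2, which shrinks low values. Each sample is taken as 1 mouse, as the methods describe. Counts of 25386 genes were also simulated, with 200 of them changed by 2 on the log2 scale, up or down. The test recovered 43% of these 200 for day 3 against healthy, with 5 false calls, so changes of that size were often missed.

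The members and gene lists were chosen with earlier results of these data known. Named outside the 10 members were counts per list, up to 3 called genes of a list per comparison by size, Ptprc and Fcgr2b, and the 5 genes most like the resident and the general members. C1s1, C2, C4b, C3, Serping1 and Csf1, the called general macrophage genes at days 3 and 7 and the choice of Hmox1 and Slc40a1 as iron genes were named after their values were seen. Alternatives were RLE size factors, library size only, no filter, a mean of at least 50 counts, only the 2 groups compared, the replicate number as a block, DESeq2 1.42.0, limma-voom with quality weights (limma 3.58.1) and leaving out each mouse, and, chosen after seeing the data, healthy replicate 1 left out together with RLE, with library size only or with DESeq2, and ratio counts without that mouse. Same-numbered mice did not deviate together, with 0 of 18 correlations over 0.1. The libraries carry no molecular identifiers, so counting precision covers counting error only. The day 1 count of the further general macrophage genes is not reported here.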

Additional observations from a re-analysis of the deposited data

Results flagged for a closer look

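Csf1r was low in day 7 replicate 1, at 124.8 CPM, against 227 to 245 CPM in the other 3 day 7 mice. The gap to the nearest mouse was 0.854 of the whole range of the group, past Dixon's critical value for 4 samples. It was 1 of 30 groups of 4 mice tested over the 10 genes, and chance alone marks about 1 group in 20. Without that mouse the log2 fold change of Csf1r at day 7 was 0.95 in place of 0.79.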

How the results depend on the processing

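Of the log2 fold changes recomputed for 50 results under 25 alternatives each, 1143 kept their direction and their side of the threshold, 13 passed it only under the alternative and 94 changed sign. The changes of sign concerned 25 results, none over 0.63 in size and none with an adjusted p under 0.05. The cause of these changes was not tested. The lowest count of a member in a library was 35, and the number of mice, 2 at day 1, limits the precision.

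For day 1 against healthy the number of genes called was 1080, with 2327 (only the 2 groups compared), 714 (healthy replicate 1 left out and RLE), 586 (healthy replicate 1 left out and library size only), 2745 (DESeq2), 2404 (healthy replicate 1 left out and DESeq2) and 4308 (limma-voom), and 164 to 1845 when 1 mouse was left out. For day 3 against healthy the number of genes called was 1915, with 1108 (only the 2 groups compared), 938 (healthy replicate 1 left out and RLE), 769 (healthy replicate 1 left out and library size only), 3633 (DESeq2), 2924 (healthy replicate 1 left out and DESeq2) and 7265 (limma-voom), and 946 to 3314 when 1 mouse was left out. For day 7 against healthy the number of genes called was 846, with 3156 (only the 2 groups compared), 194 (healthy replicate 1 left out and RLE), 219 (healthy replicate 1 left out and library size only), 2602 (DESeq2), 1780 (healthy replicate 1 left out and DESeq2) and 7047 (limma-voom), and 193 to 2166 when 1 mouse was left out. For day 3 against day 1 the number of genes called was 676, with 189 (only the 2 groups compared), 448 (healthy replicate 1 left out and library size only), 2314 (DESeq2), 2267 (healthy replicate 1 left out and DESeq2) and 3344 (limma-voom), and 49 to 932 when 1 mouse was left out. For day 7 against day 3 the number of genes called was 472, with 287 (library size only), 157 (no filter on low counts), 1 (only the 2 groups compared), 268 (healthy replicate 1 left out and RLE), 176 (healthy replicate 1 left out and library size only), 1663 (DESeq2), 1528 (healthy replicate 1 left out and DESeq2) and 6002 (limma-voom), and 26 to 1652 when 1 mouse was left out.

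Scaling by library size only moved the share of calls that were higher from 64.2% to 75.1% at day 3 and from 68.8% to 86.8% at day 7 against healthy LSECs. RLE size factors gave 63.6% and 75.8%.

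Of the 10 members, 1 was called at day 1 by DESeq2, limma-voom, a mean of at least 50 counts and DESeq2 without healthy replicate 1 (Marco each time), and 0 to 1 when 1 mouse was left out. At day 3, 1 was called with healthy replicate 1 left out and library size only (Clec4f), and 2 with DESeq2 in place of that scaling (Clec4f and C1qa). At day 7, 1 was called by limma-voom (Adgre1). For day 3 against day 1, 1 was called by DESeq2, with and without healthy replicate 1 (Marco).

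The sign of a log2 fold change turned as follows. With library size only, it turned for Csf1r (-0.018) for day 1 against healthy, and C1qb (0.034) for day 7 against healthy. With no filter on low counts, it turned for Csf1r (-0.046) for day 1 against healthy, C1qb (-0.035) for day 3 against healthy, and C1qc (-0.079) for day 7 against healthy. With only the 2 groups compared, it turned for Csf1r (-0.010) for day 1 against healthy. With healthy replicate 1 left out and RLE, it turned for Csf1r (-0.34), C1qa (-0.014) and Vsig4 (-0.21) for day 1 against healthy, Csf1r (-0.11), C1qc (-0.093) and C1qb (-0.15) for day 3 against healthy, and Cd5l (-0.14) and C1qc (-0.21) for day 7 against healthy. With healthy replicate 1 left out and library size only, it turned for Csf1r (-0.36), C1qa (-0.042) and Vsig4 (-0.24) for day 1 against healthy, Csf1r (-0.067), C1qc (-0.10) and C1qb (-0.17) for day 3 against healthy, and Cd5l (-0.10) and C1qc (-0.17) for day 7 against healthy. With healthy replicate 1 left out and DESeq2, it turned for Csf1r (-0.34), C1qa (-0.015) and Vsig4 (-0.22) for day 1 against healthy, Csf1r (-0.12), C1qc (-0.10) and C1qb (-0.16) for day 3 against healthy, and Cd5l (-0.14) and C1qc (-0.22) for day 7 against healthy. With limma-voom, it turned for Csf1r (-0.0036) for day 1 against healthy, Cd5l (0.22) for day 3 against healthy, C1qb (0.066) for day 7 against healthy, Cd5l (0.39), C1qc (0.068), C1qb (0.043) and Timd4 (0.50) for day 3 against day 1, and Vsig4 (-0.23) and Timd4 (-0.028) for day 7 against day 3. With a mean of at least 50 counts, it turned for C1qb (0.028) for day 7 against healthy.

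When 1 mouse was left out, values that turned in at least 1 case ranged, for day 1 against healthy, from -0.55 to 0.32 (Adgre1), from -0.48 to 0.36 (Csf1r), from -0.46 to 0.78 (C1qa), from -1.12 to 0.51 (Cd5l), from -0.13 to 1.07 (C1qc), from -0.069 to 1.04 (C1qb) and from -0.49 to 0.54 (Vsig4). For day 3 against healthy they ranged from -0.10 to 0.54 (Csf1r), from -0.36 to 0.90 (Marco), from -0.074 to 0.44 (C1qc) and from -0.20 to 0.42 (C1qb). For day 7 against healthy they ranged from -0.47 to 0.12 (C1qa), from -0.16 to 0.46 (Cd5l), from -0.23 to 0.28 (C1qc) and from -0.33 to 0.22 (C1qb). For day 3 against day 1 they ranged from -0.24 to 0.61 (Csf1r), from -0.98 to 0.65 (Cd5l), from -0.98 to 0.21 (C1qc), from -1.02 to 0.092 (C1qb) and from -0.64 to 0.51 (Timd4). For day 7 against day 3 they ranged from -0.26 to 0.18 (C1qc), from -0.33 to 0.17 (C1qb) and from -0.055 to 0.65 (Vsig4).

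With the replicate number as a block, 594 genes were called for day 1 against healthy, 435 genes were called for day 7 against healthy, 311 genes were called for day 3 against day 1 and 244 genes were called for day 7 against day 3, 0 of them members, and Adgre1 (0.063) for day 1 against healthy, Cd5l (0.13) for day 1 against healthy and C1qb (0.0040) for day 7 against healthy turned. The mice share only a number, since 0 of 18 same-numbered pairs had a correlation over 0.1 (range -0.23 to 0.096) and 0 of 14 correlated best with its own number.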
